A study of Mus musculus with 10 samples.

Results

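Mturn and Bhlhb9 are 2 genes of the 24454 listed in the count files, and they were chosen by how cleanly their expression in brown adipose tissue (BAT) separated Stat5Adipoq from control mice. Mturn was higher and Bhlhb9 lower in Stat5Adipoq BAT. Because this difference selected them, it is given as a description without a test. RNA-Seq was performed on BAT of 5 control and 5 Stat5Adipoq mice, with 1 library per mouse. All mice were males that were 2 months old, on a C57BL/6N background, fed ad libitum and sampled in the basal state. Stat5Adipoq mice carry floxed Stat5 and a Cre transgene under the adiponectin promoter, which is active in white as well as brown adipocytes, so that the deletion is not limited to BAT. Controls were littermates with floxed Stat5 but no Cre according to the methods, while the sample labels call them wild type.

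STAT5 is a transcription factor that is phosphorylated by JAK2 downstream of growth hormone, prolactin and several cytokines and then binds DNA at promoters and enhancers. Mturn encodes maturin, a small protein known from early neurogenesis, where it promotes the differentiation of neural progenitors, and from the differentiation of megakaryocytes. Bhlhb9 encodes GPRASP3, a member of the G protein-coupled receptor-associated sorting proteins (GPRASP) and the related armadillo repeat proteins of the ARMCX group. These proteins bind the tails of G protein-coupled receptors or sit on mitochondria, and Bhlhb9 is best known from brain.

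Mturn (Entrez 68235) lies on chromosome 6 at chr6:54681624-54703855 of GRCm38, on the plus strand. Its principal transcript has 3 exons, all of them coding, is 5303 bases long and encodes 131 residues. Bhlhb9 (Entrez 70237) lies on the X chromosome. Its RefSeq span, chrX:135841639-135891081 on the plus strand, runs into the neighbouring Gprasp2 because of transcripts that read through both genes. The principal transcript of Bhlhb9 covers chrX:135885853-135891081, has 5 exons and is 2823 bases long. Its whole reading frame of 539 residues lies in 1 exon. This is a property of the family, as the 8 X-linked relatives examined also have a single coding exon, whereas Armc10 on chromosome 5 has 6. No 50-base word of the Mturn transcript (0 of 5254) or of the Bhlhb9 transcript (0 of 2774) occurred in another annotated gene. This holds for the principal transcripts, whereas the longer Bhlhb9 transcripts that read through from Gprasp2 share sequence with Gprasp1 and Gprasp2, and whether their exons entered the Bhlhb9 count was not tested. Of the exon bases of Mturn, 3.58% (190 bases) are covered by Gm28402 on the opposite strand, and whether counting used the strand is not given in the sources used here.

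The sequences around the start sites are shown because the genes were chosen as responsive to loss of a DNA-binding factor. They are the RefSeq promoter windows of GRCm38.p6, from 250 bases before to 50 bases after the start, 5′ to 3′, with capitals for motif matches. Both genes had an entry. The first is chr6:54681374-54681673 and the second chrX:135885601-135885900, both on the plus strand.
Mturn: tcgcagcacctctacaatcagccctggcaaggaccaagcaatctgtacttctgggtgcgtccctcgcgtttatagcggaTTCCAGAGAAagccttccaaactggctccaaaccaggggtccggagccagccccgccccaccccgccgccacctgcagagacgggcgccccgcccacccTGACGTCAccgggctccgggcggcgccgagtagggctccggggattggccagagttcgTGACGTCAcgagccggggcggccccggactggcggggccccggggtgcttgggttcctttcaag
Bhlhb9: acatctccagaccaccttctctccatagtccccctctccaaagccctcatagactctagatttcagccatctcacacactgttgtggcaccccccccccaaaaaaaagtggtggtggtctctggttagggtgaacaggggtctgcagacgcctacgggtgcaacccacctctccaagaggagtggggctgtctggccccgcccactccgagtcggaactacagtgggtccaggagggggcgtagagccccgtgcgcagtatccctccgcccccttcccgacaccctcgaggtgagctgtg

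Neither window held the STAT5 consensus TTCNNNGAA, searched on both strands, which occurred in 6.84% of the 13708 windows of tested genes. This says only that these letters are absent from 300 bases, as STAT5 can bind further away. Mturn held 1 match to the wider spacing TTCNNNNGAA (TTCCAGAGAA, chr6:54681453-54681462), beginning at position -171 from the start, a motif found in 5.42% of windows. In addition, it held 2 copies of the cAMP response element TGACGTCA, beginning at positions -72 and -14. This palindromic motif, which is bound by CREB and ATF proteins, was found in 2.89% of windows and at least 2 times in 12 of 13708 (0.0875%). The cAMP response element was searched for after the sequence had been seen. Bhlhb9 held no match to any of these 3 motifs. The Mturn window was 68% G and C with 27 CpG dinucleotides, and that of Bhlhb9 was 61% with 11, beside medians of 60.3% and 20 over windows of tested genes. A match is a description of the sequence, and binding was not measured.

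Between 8488129 and 19514904 counts per library fell on genes. Stat5a was detected at 105 ± 17.0 CPM (counts scaled to a common library size by TMM, SD, n = 5) in control and 17.1 ± 2.05 in Stat5Adipoq BAT, and Stat5b at 83.8 ± 5.51 and 21.8 ± 0.723, with no overlap between genotypes. All libraries expressed brown adipocyte markers, with 9171 to 19101 CPM summed over 9 genes in control and 12097 to 16999 in Stat5Adipoq BAT. Ucp1 alone stood at 9004 ± 3184 CPM in control and 10620 ± 2379 in Stat5Adipoq BAT (SD, n = 5). The sum therefore says little about the other markers. Control replicate 3 stood apart by skeletal muscle genes, with 3778 CPM summed over 8 genes beside at most 312 in the other libraries. In bulk tissue, fewer cells of a type and less RNA per cell cannot be told apart.

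Mturn was detected at 54.6, 48.7, 46.2, 50.8 and 67.9 CPM in control replicates 1 to 5, from 570, 537, 384, 1004 and 743 counts. In Stat5Adipoq replicates 1 to 5 it was detected at 116, 125, 136, 118 and 122 CPM, from 1384, 1957, 1474, 1075 and 1528 counts. Every Stat5Adipoq library was above every control library, and control replicate 5 was the nearest of the controls. The means were 53.6 ± 8.54 CPM in control and 124 ± 7.84 CPM in Stat5Adipoq BAT (SD, n = 5 each), a 2.30-fold higher level (log2 fold change 1.20, SE 0.10). Mice within a genotype varied with a coefficient of variation of 15.9% in control and 6.34% in Stat5Adipoq BAT. Over both genotypes together and without regard to transcript length, the mean of 1065.6 counts for Mturn exceeded that of 86.3% of tested genes.

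Bhlhb9 was detected at 17.8, 14.9, 18.4, 18.5 and 17.0 CPM in control replicates 1 to 5, from 186, 164, 153, 366 and 186 counts. In Stat5Adipoq replicates 1 to 5 it was detected at 8.38, 7.31, 5.72, 8.70 and 6.47 CPM, from 100, 114, 62, 79 and 81 counts. Every Stat5Adipoq library was below every control library, and in none did the transcript vanish. The means were 17.3 ± 1.49 CPM in control and 7.32 ± 1.26 CPM in Stat5Adipoq BAT (SD, n = 5 each), a 2.37-fold lower level (log2 fold change -1.25, SE 0.12). The coefficient of variation was 8.58% in control and 17.2% in Stat5Adipoq BAT. With a mean of 149.1 counts over both genotypes, Bhlhb9 exceeded 42.4% of tested genes, again without regard to transcript length.

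Because both genes were counted in the same library, their ratio does not depend on how libraries were scaled. A control library held 3.06, 3.27, 2.51, 2.74 and 3.99 counts of Mturn for each count of Bhlhb9 in replicates 1 to 5. A Stat5Adipoq library held 13.8, 17.2, 23.8, 13.6 and 18.9. The groups did not overlap, which was fixed by the choice of 2 genes that each separate the genotypes, in opposite directions. The median ratio was 3.06 in control and 17.2 in Stat5Adipoq BAT, which is 5.62-fold higher. It combines the 2 differences by which the genes were chosen and is a description only. Stat5Adipoq replicate 3 had the highest Mturn and the lowest Bhlhb9 level of its group, and control replicate 5 had the highest ratio of the controls. Without control replicate 3, which carried the muscle genes, the log2 fold change was 1.16 for Mturn and -1.23 for Bhlhb9.

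**Figure D1:**
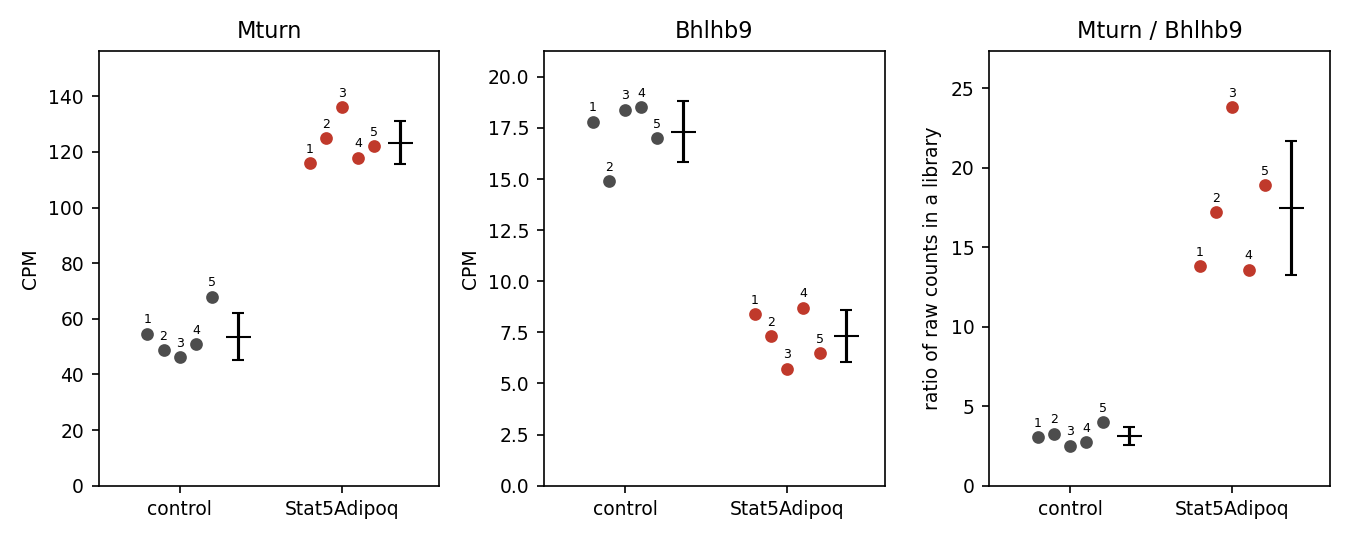
Mturn (left, CPM), Bhlhb9 (middle, CPM) and the ratio of their raw counts (right) in each library, with replicate numbers beside the points and the mean ± SD of 5 libraries beside each group. Mturn lies between 46.2 and 67.9 in control and 116 and 136 in Stat5Adipoq BAT, and Bhlhb9 between 14.9 and 18.5 and between 5.72 and 8.70.

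The separation was measured by the gap between the nearest libraries of the 2 genotypes. This gap was 0.77 on the log2 scale for each gene, or 1.71-fold. Among 10152 tested genes with at least 50 counts on average, 520 did not overlap between genotypes, and Bhlhb9 and Mturn held ranks 11 and 12 of these by the size of the gap. Just above them was Il18bp with a gap of 0.78, and just below were Fhl3 and Gnai1 with 0.77 and Trf with 0.76. Stat5a and Stat5b had gaps of 2.07 and 1.74, and Cish, which encodes a feedback inhibitor of cytokine signalling and is an established STAT5 target, one of 0.83. By fold change alone, Mturn was 14th of 5096 genes with a positive value and Bhlhb9 66th of 5056 with a negative value. The pooled SD on the log2 scale was 0.17 for Mturn and 0.20 for Bhlhb9, and the median over genes was 0.14. Because both genes were chosen for clean separation, their gap, rank and spread are a description only.

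Among all 13568 tested genes, 368 (2.71%) passed the threshold of edgeR's quasi-likelihood test at an adjusted p-value of 0.05. Of these, 178 (1.31%) were lower and 190 (1.40%) higher in Stat5Adipoq BAT, and 596 genes (4.39%) did not overlap between genotypes. Mturn and Bhlhb9 were among both sets because they were selected on this contrast, and nothing is read from that. Cish fell from 36.2 ± 5.01 to 8.53 ± 5.78 CPM (log2 fold change -2.06, SE 0.36, edgeR adjusted p = 0.011). It varied between 3.12 and 17.1 CPM among Stat5Adipoq mice, a coefficient of variation of 67.7%. Socs2, another classical STAT5 target, was low in BAT with 2.74 ± 0.869 and 2.58 ± 0.504 CPM, and its libraries overlapped.

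No relative of Bhlhb9 passed the test. Of 9 GPRASP and ARMCX relatives, 7 were tested and 0 were called by edgeR, 0 had an unadjusted p-value below 0.05 and 0 separated the genotypes. Over all tested genes, 2.71% were called by edgeR and 4.39% did not overlap, so 0 of 7 is near these shares. DESeq2 called 0 as well. Their median log2 fold change was 0.03, with a range from -0.25 to 0.13, beside a median of -0.003 over all tested genes. Gprasp1, which directs G protein-coupled receptors to lysosomes, was detected at 20.4 ± 1.42 CPM in control and 21.4 ± 1.49 in Stat5Adipoq BAT (log2 fold change 0.07, 95% limits -0.09 and 0.23, edgeR adjusted p = 0.73). For Armc10, a mitochondrial protein, the 95% limits were -0.20 and 0.39. For Armcx1, which acts in mitochondrial transport, they were -0.12 and 0.39, and for Armcx4 -0.61 and 0.10. These limits leave room for moderate changes of the single genes. Each limit lies above the log2 fold change of Bhlhb9, which was selected on this contrast, so nothing is read from that. Whether Bhlhb9 differed from each relative in its response was not tested. Gprasp2 and Armcx6 were below the filter, with means of 3.2 and 4.7 counts. Part of the sequence of Gprasp1 is shared with Gprasp2, Bhlhb9 and Armcx5 transcripts (11.0% of its 50-base words), so its count is uncertain to this extent.

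Per kilobase of transcript, Bhlhb9 was the family member with the highest level in control BAT and lost this place in Stat5Adipoq BAT. It stood at 6.13 ± 0.527 CPM per kilobase in control BAT (SD, n = 5), where Armc10 followed with 4.21 ± 0.678 and Gprasp1 and Armcx1 with 3.49 ± 0.243 and 3.49 ± 0.404. It ranked 1st of 10 in all 5 control libraries, with 5.27 to 6.55 for Bhlhb9 and 3.52 to 5.15 for Armc10. The spreads of Armc10, Gprasp1 and Armcx1 overlapped, so their order among themselves is not resolved. In Stat5Adipoq BAT, Bhlhb9 stood at 2.59 ± 0.445, below Armc10 (4.47 ± 0.688), Armcx1 (3.83 ± 0.533) and Gprasp1 (3.67 ± 0.256), and it ranked 4th in all 5 libraries. Next came Armcx2 with 1.56 ± 0.355. Its share of the raw counts of these 10 genes was 20.5% to 24.3% in control and 8.4% to 12.8% in Stat5Adipoq libraries. These values rest on the contrast that selected Bhlhb9. Mturn stood at 10.1 ± 1.61 CPM per kilobase in control and 23.3 ± 1.48 in Stat5Adipoq BAT.

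**Figure D2:**
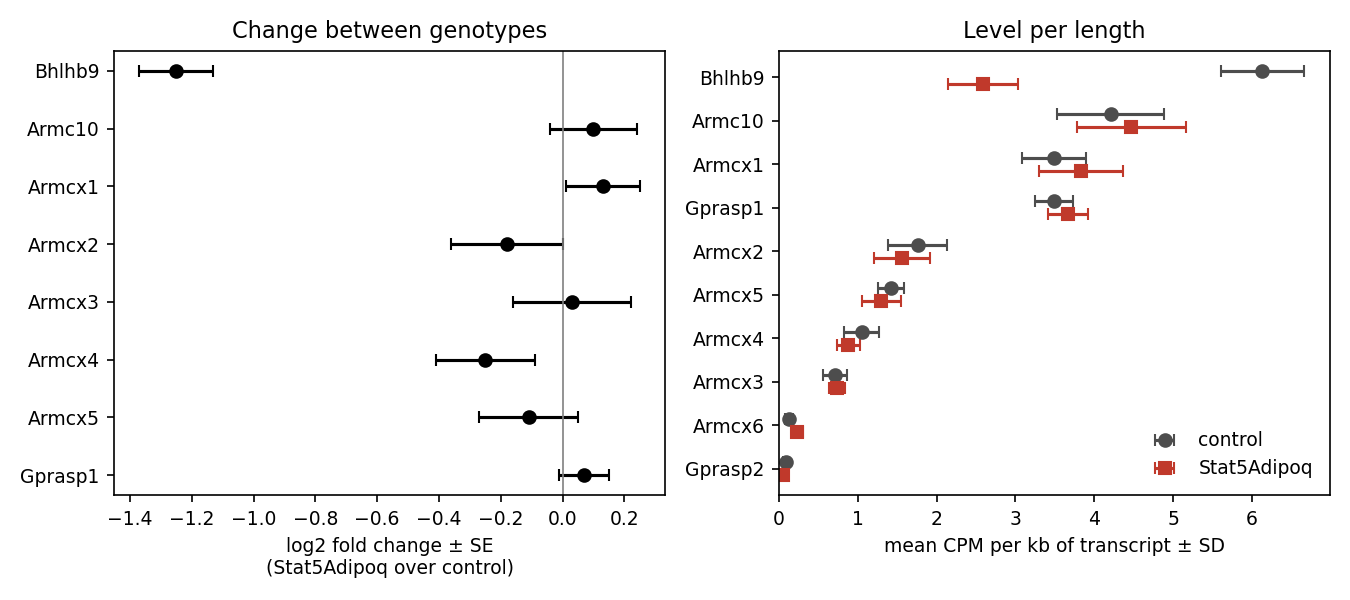
Left, log2 fold change ± SE (Stat5Adipoq over control) of Bhlhb9 and its 7 tested relatives. Right, mean CPM per kilobase of transcript ± SD (n = 5 libraries) of Bhlhb9 and all 9 relatives in control (circles) and Stat5Adipoq BAT (squares). Bhlhb9, selected on this contrast, is at -1.25 and its relatives are between -0.25 and 0.13, and its level is 6.13 per kilobase in control and 2.59 in Stat5Adipoq BAT.

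The neighbouring genes on the chromosome were examined within 500000 bp. Around Mturn, 12 genes were tested, of which 0 were called by edgeR and 2 had an unadjusted p-value below 0.05. Of the 12, 1 (Scrn1) did not overlap between genotypes. Over all tested genes, 2.71% were called and 4.39% did not overlap. The nearest tested neighbours were Plekha8, 35801 bp before Mturn, with a log2 fold change of 0.16 (95% limits -0.09 and 0.42, edgeR adjusted p = 0.57), and Znrf2, 113061 bp after it, with 0.08 (-0.06 and 0.21, adjusted p = 0.65). Plekha8 encodes a lipid transfer protein of the Golgi and Znrf2 a ubiquitin ligase. Wipf3 and Scrn1 are named after their values were seen, as the genes with an unadjusted p-value below 0.05. Wipf3, which encodes an actin regulator, had a log2 fold change of 1.13 (SE 0.34, edgeR adjusted p = 0.12) at a mean of 44.4 counts. With DESeq2 the adjusted p-value was 0.026, and in edgeR without control replicate 3 it was 0.022 with a log2 fold change of 1.46. Scrn1 had a log2 fold change of -1.19 (SE 0.33, edgeR adjusted p = 0.09) at a mean of 9.5 counts. Its level was 0.722 to 1.62 CPM in control and 0.256 to 0.587 CPM in Stat5Adipoq libraries, from 4 to 32 counts.

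Around Bhlhb9, 7 genes were tested and 1 was called, against 2.71% of all tested genes. This was Arxes2, an adipocyte-related X-linked gene 102739 bp after Bhlhb9, which has been linked to adipogenesis. It was detected at 58.4, 55.5, 60.5, 65.4 and 50.5 CPM in control replicates 1 to 5 and at 51.7, 34.6, 38.5, 30.3 and 38.7 CPM in Stat5Adipoq replicates 1 to 5. Stat5Adipoq replicate 1 lay within the control range, and the other 4 lay below it. The log2 fold change was -0.58 (SE 0.12, edgeR adjusted p = 0.028). This call was lost in 7 of 10 fits that left out 1 library, namely control replicate 1, 2 or 4 or Stat5Adipoq replicate 2, 3, 4 or 5, and over all alternatives the adjusted p-value ranged from 0.0005 to 0.075. Its near copy Arxes1, with which it shares 40.1% of its 50-base words, had a log2 fold change of -0.31 (SE 0.13, edgeR adjusted p = 0.30), and the counts of the pair are uncertain for this reason. The nearest tested neighbour on the other side was Gprasp1, 38171 bp before Bhlhb9.

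The BEX and TCEAL genes, small X-linked families that share this region and are expressed in brain, gave no call either. Of 12 genes, 4 were tested and 0 were called by edgeR or DESeq2, with 0 at an unadjusted p-value below 0.05. Over all tested genes, 2.71% were called by edgeR, so 0 of 4 is near that share. The median log2 fold change was -0.01, from -0.11 for Bex3 to 0.02 for Tceal1. Tceal8 was detected at 13.1 ± 1.32 and 13.1 ± 1.55 CPM and Tceal9 at 9.71 ± 0.942 and 9.59 ± 1.08 in control and Stat5Adipoq BAT. Bex4, Tceal6 and Tceal7 had 0 counts in all libraries.

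**Figure D3:**
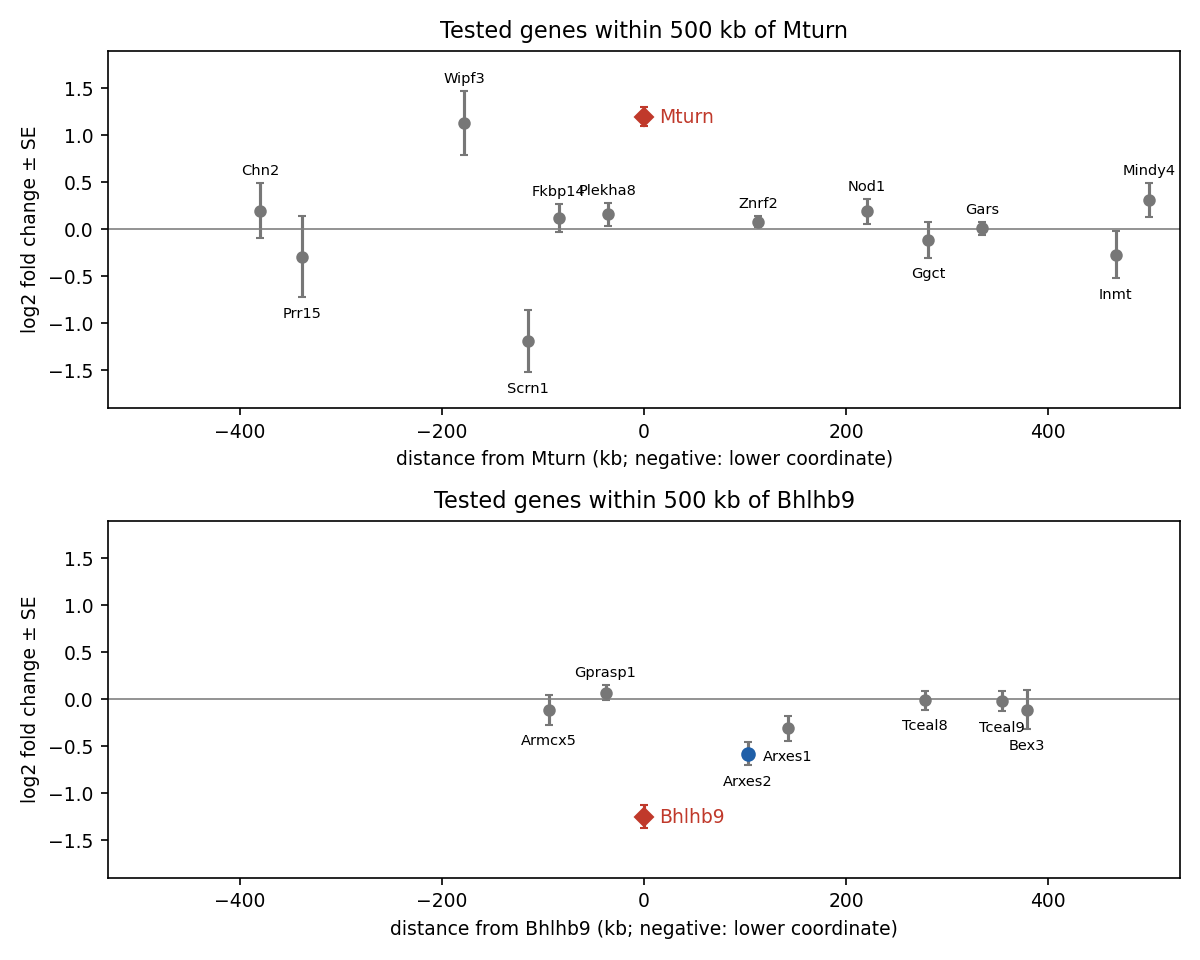
Log2 fold change ± SE (Stat5Adipoq over control) of tested genes within 500 kb of Mturn (top) and Bhlhb9 (bottom) against their distance in kb. Diamonds mark Mturn (1.20) and Bhlhb9 (-1.25), and the darker blue point marks Arxes2 (-0.58), the 1 neighbour called by edgeR.

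The machinery with which these families work was also examined, beside the 2.71% of all tested genes that edgeR called. Of 25 genes for the internalisation and lysosomal sorting of receptors, including the arrestins Arrb1 and Arrb2 and ESCRT components, all 25 were tested and 0 were called by edgeR. An unadjusted p-value below 0.05 was seen for 4, and the log2 fold changes ran from -0.17 to 0.24 with a median of 0.02. DESeq2 called 1 of them, the ubiquitin ligase Nedd4 (log2 fold change -0.17, DESeq2 adjusted p = 0.014), and edgeR called the sorting nexin Snx2 when control replicate 3 was left out (0.22, adjusted p = 0.047). Of 12 genes for mitochondrial transport and dynamics, such as Rhot1 and Trak1, 12 were tested, 0 were called by edgeR or DESeq2 and 1 had an unadjusted p-value below 0.05. Their median log2 fold change was -0.03.

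Mturn and Bhlhb9 are known from neural tissue and Mturn from megakaryocytes, so markers of nerve and platelets were read beside them. Over all tested genes, 2.71% were called by edgeR. Of 11 neuron markers, only Stmn2 was tested, at 2.78 ± 0.455 CPM in control and 3.66 ± 0.675 in Stat5Adipoq BAT (log2 fold change 0.40, edgeR adjusted p = 0.30). The neuron markers summed to 2.59 to 3.99 CPM in control and 3.42 to 5.51 CPM in Stat5Adipoq libraries, and Th had 0 counts in all libraries. This sum was below the level of Bhlhb9 alone in every library. The 8 megakaryocyte and platelet markers summed to 9.96 to 13.5 CPM in control and 10.9 to 14.8 CPM in Stat5Adipoq libraries, and 0 of 5 tested were called by edgeR or DESeq2, with 0 at an unadjusted p-value below 0.05. Both ranges lay under the Mturn level of the same genotype. Levels of different genes do not give the share of a cell type. The part of nerve or platelets in the level of either gene was not tested.

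Schwann cell markers gave 1 call among 10 tested, against 2.71% of all tested genes. This was S100b, a calcium-binding protein of glia that adipocytes also express, and it was higher in Stat5Adipoq BAT, as Mturn was. It was detected at 45.9, 55.8, 70.1, 70.3 and 69.9 CPM in control replicates 1 to 5 and at 137, 148, 129, 132 and 109 CPM in Stat5Adipoq replicates 1 to 5, without overlap (log2 fold change 1.07, SE 0.12, edgeR adjusted p = 0.00085). Of the other 9 markers, 0 were called by edgeR and 1 by DESeq2, where Pmp22 was lower. The 10 markers summed to 192 to 612 CPM in control and 253 to 380 CPM in Stat5Adipoq libraries and their median log2 fold change was -0.73. The part of S100b-expressing cells in the higher Mturn level was not tested.

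Other cell types were read from their markers, beside the 2.71% of all tested genes that edgeR called. Of 8 macrophage, 3 B cell, 3 T cell, 6 endothelial, 6 fibroblast and 6 pan-adipocyte markers tested, edgeR called 0, and the unadjusted p-value was below 0.05 for 0, 1, 1, 1, 0 and 1, in this order. DESeq2 called 1, the lipase gene Pnpla2 (log2 fold change -0.21, DESeq2 adjusted p = 0.011). Of the 8 skeletal muscle markers, 0 were called by edgeR and 3 by DESeq2 (Acta1, Myh1 and Ckm), all 8 were below 0.05 unadjusted, and the median log2 fold change was -5.62. Control replicates 3 and 5 had 3778 and 312 CPM summed over these markers, while the other controls had 56.5, 16.2 and 4.90 and the Stat5Adipoq libraries 2.37 to 43.5. Without control replicate 3 the median was -2.43, and without control replicate 5 it was -5.74. White adipocyte markers summed to 126 to 164 CPM in control and 41.5 to 127 CPM in Stat5Adipoq libraries. Of these, 1 of 5 tested was called, Retn, the adipokine resistin, which fell from 86.0 ± 11.7 to 29.7 ± 18.0 CPM (log2 fold change -1.53, edgeR adjusted p = 0.023) and lost the call when control replicate 1 or Stat5Adipoq replicate 2, 3 or 4 was left out. Slc7a10 (log2 fold change -1.49, edgeR adjusted p = 0.053) and Hoxc8 (-1.24, adjusted p = 0.088) were called lower by DESeq2 and by edgeR under the replicate block or without Stat5Adipoq replicate 1, and Slc7a10 also under both other filters and without control replicate 5. The log2 fold change was 0.62 for Lep, which encodes leptin, and -0.17 for Nnat (edgeR adjusted p = 0.40 and 0.87), and 3 of the 5 markers had an unadjusted p-value below 0.05. The part of these markers in the lower Bhlhb9 level was not tested. Of 9 brown adipocyte markers, 1 was called and 2 had an unadjusted p-value below 0.05, with log2 fold changes from -1.07 to 0.38. The called gene was Cox7a1, a cytochrome c oxidase subunit, which rose by 0.29 on the log2 scale (edgeR adjusted p = 0.04). It lost the call in 7 of 10 fits with 1 library left out. The libraries were control replicates 1, 2, 4 and 5 and Stat5Adipoq replicates 3, 4 and 5.

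The genes with the most similar pattern were taken by the root-mean-square difference of log2 CPM over the 10 libraries, centred on each gene's mean, among 10152 genes. For Mturn these were BC029214 (0.16), Ehd3 (0.18), Cyp27a1 (0.21), Zfp949 (0.22) and Col4a5 (0.23), where the median gene had 0.64. Ehd3 acts in endosomal trafficking, Cyp27a1 is the sterol 27-hydroxylase and Col4a5 a type IV collagen chain. Their log2 fold changes were 1.22, 1.13, 0.85, 0.88 and 0.86 in the same order. In control replicate 5, where Mturn was highest among controls, each of these 5 genes was highest among controls as well, with 49.2 CPM for BC029214, 9.50 for Ehd3, 72.0 for Cyp27a1, 9.78 for Zfp949 and 10.5 for Col4a5. As the measure uses all 10 libraries, this is part of how they were chosen.

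For Bhlhb9 the 4 nearest genes were Cp (0.15), Il18bp (0.19), Gnai1 (0.22) and Tcn2 (0.26), with 0.66 for the median gene. Cp encodes the copper-carrying ferroxidase ceruloplasmin, Il18bp a secreted decoy for interleukin 18, Gnai1 an inhibitory G protein subunit and Tcn2 the vitamin B12 carrier transcobalamin. Their log2 fold changes were -1.28, -1.28, -1.21 and -0.84 in the same order. Cp was detected at 66.2, 52.1, 61.8, 83.5 and 73.5 CPM in control replicates 1 to 5 and at 32.0, 28.9, 24.7, 28.8 and 24.7 CPM in Stat5Adipoq replicates 1 to 5. In both genes control replicate 2 was the lowest of the controls. With its sign turned, the Bhlhb9 pattern differed from that of Mturn by 0.19, about as little as these nearest genes did from their own member. Most of this likeness is the genotype difference by which the genes were picked.

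**Figure D4:**
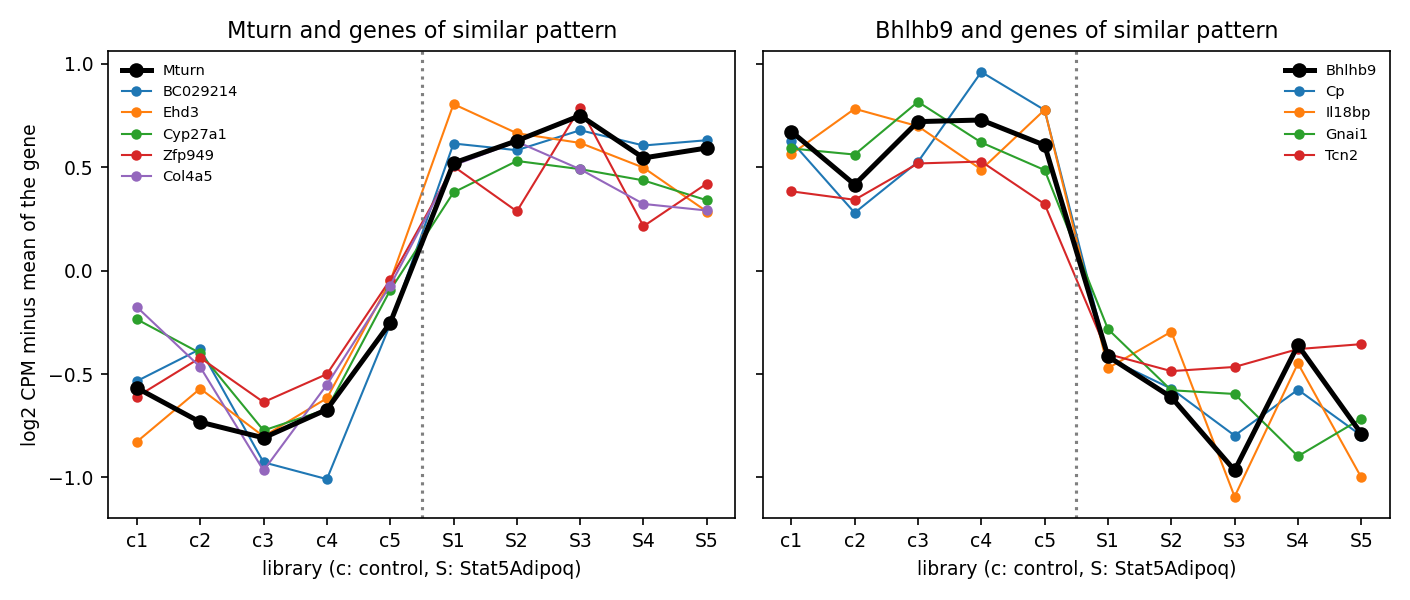
Log2 CPM minus the gene's mean in each library (c, control; S, Stat5Adipoq; number, replicate) for Mturn (left) and Bhlhb9 (right), drawn thick in black, with the 5 (Mturn) and 4 (Bhlhb9) genes of most similar pattern. Control replicate 5 is the highest control for Mturn and all 5 of its nearest genes.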

How the data were processed

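BAT RNA of 5 control and 5 Stat5Adipoq mice was sequenced as single reads of 50 bases. The authors aligned them with STAR 2.5.0b and counted them over exons with featureCounts 1.5.0-p1, per the submitters' notes, and deposited raw counts per gene. Their table of the comparison, made with DESeq2 1.16.1, gave only gene symbols here, and its fold changes and p-values were not used. Groups and replicate numbers came from the sample titles.

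Genes with a size factor normalized row sum above 45 were kept (13568). Genotypes were compared with edgeR 4.0.16 (quasi-likelihood F test, TMM, no covariate) and Benjamini-Hochberg adjustment at 0.05, after the procedure had been tested on simulated data. CPM are counts divided by the TMM-scaled library size. DESeq2 1.42.0, DESeq2 size factors, other filters, a replicate block and leaving out each library were the alternatives. No 2 libraries were alike within sampling noise. At 8488129 to 19514904 counts per library, genes with few counts have wide limits.

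Named were both genes, Stat5a and Stat5b, Cish and Socs2 for scale, called list members and neighbours, the nearest tested neighbours, up to 4 uncalled relatives with the highest CPM, and the 5 genes nearest in pattern among those with at least 50 counts. Wipf3, Scrn1 and genes called only under an alternative were picked with their values in view. The members and lists were chosen with earlier results of these data known. Gene models came from GENCODE and positions from RefSeq for GRCm38. Protein sequences were not used here, and the values of some genes that the rule names are not reported here.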

Additional observations from a re-analysis of the deposited data

Results flagged for a closer look

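In 2 of 54 groups of 5 libraries examined, 1 library lay far from the other 4 by Dixon's test, and chance gives about 2.7. Stat5a was at 20.7 CPM in Stat5Adipoq replicate 1, beside 15.8 to 16.6 in the other Stat5Adipoq libraries. Ehd3, one of the genes nearest to Mturn in pattern, was at 9.50 CPM in control replicate 5, beside 5.55 to 6.63 in the other controls. Neither Mturn nor Bhlhb9 was flagged in either genotype.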

How the results depend on the processing

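The log2 fold change of Mturn lay between 1.16 and 1.30 and that of Bhlhb9 between -1.31 and -1.17 under all 15 alternatives. With 1 library left out, the genes called lower numbered 84 to 222 and those called higher 96 to 220. They fell by over 1.5 times without control replicate 1, 2 or 4 or Stat5Adipoq replicate 3, 4 or 5. DESeq2 called 334 lower and 326 higher, and the cause was not tested. DESeq2 also called 1 gene near Mturn (Wipf3), 1 receptor sorting gene (Nedd4) and 2 neuron and Schwann cell genes (S100b and Pmp22). With 1 library left out, edgeR called 0 to 1 genes near Mturn, 0 to 1 near Bhlhb9 and 0 to 1 of receptor sorting. The relatives of Bhlhb9, the BEX and TCEAL genes, the mitochondrial transport genes and the platelet markers gave 0 calls under every alternative.

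What the replicate numbers stand for is not given in the sample titles. Deviations of same-numbered libraries correlated between -0.26 and 0.15 over 10152 genes, and only number 2 correlated best with its own. Low correlations do not show a pairing of the mice, but they cannot exclude one. With the number as a replicate block, 141 genes were called lower and 132 higher, and the log2 fold changes were 1.21 for Mturn and -1.24 for Bhlhb9. With the block, edgeR also called the white adipocyte markers Slc7a10 (adjusted p = 0.034) and Hoxc8 (adjusted p = 0.024), which took that list from 1 to 3 calls, and no other list or neighbourhood changed its count. Depth limits the genes with few counts, such as Gprasp2 and Armcx6.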
